A study of Drosophila melanogaster with 80 samples.

Results

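Larvae of Drosophila melanogaster sampled at the 11 °C trough of a temperature cycle were compared with larvae kept at a constant 19 °C and sampled at the same point. Members were chosen by the labels for regime, stage and sampling point, which gave 4 fluctuating and 4 constant libraries, 8 of the 80 in the series. The study measured messenger RNA of whole larvae and whole adults under both regimes. The fluctuating regime had a mean of 19 °C and an amplitude of 8 °C, so its animals passed between 11 °C and 27 °C, and larvae spent 7 days in treatment, with sampling once 6 cycles were done. The sources used here give no strain, age or number of animals per library, and the sex of the larvae is labelled unknown. The constant larvae had been through no cycle and were at 19 °C when sampled, so the effect of the current temperature and that of the 6 earlier cycles cannot be told apart in this comparison. Larvae at the high point of the same cycle (4 fluctuating, 4 constant) and adult females and males at the low point after 6 cycles (4 fluctuating and 4 constant of each sex, 13 days in treatment) were used to show where the larval low point differs.

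Flies make heat shock proteins when proteins misfold: Hsp70 binds unfolded chains, J-domain proteins such as DnaJ-1 hand clients to it, and Hsp90 with its co-chaperones finishes the folding of signalling proteins. The transcription factor Hsf drives the inducible members, and in insects the response is known from heat and also from the recovery after cold. Larvae also carry blood cells called hemocytes, which engulf microbes and dead cells and, as crystal cells and lamellocytes, melanise and encapsulate foreign bodies.

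Total counts of the 8 libraries, in units of 1000000, ran from 97 to 121.7 (median 110.6). Genes of larval storage proteins, which mark the larval fat body, summed to between 115300 and 125500 CPM (counts per 1000000 counts of the library) in constant and between 105800 and 123400 in fluctuating larvae, and those of yolk and eggshell to between 6.10 and 9.40 and between 5.18 and 21.2. A library stood apart: on the first principal component of the 8 libraries (31.23% of the variance) fluctuating replicate 3 lay at 61.26 and the other libraries between -34.61 and 24.46. Its 40 testis markers summed to 1759 CPM, against 553 to 1030 in the other 7 libraries, and its muscle markers to 9047 CPM, against 10310 to 19420. The labels do not give the sex of the larvae, and the part of the testis genes in the results was not tested. In bulk libraries of whole animals, fewer cells of a type and less RNA per cell cannot be told apart.

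Of 14634 genes tested with edgeR's quasi-likelihood test, 162 differed between the groups at an adjusted p under 0.05, which is 1.11% of the genes. Of these, 64 (0.437%) were higher and 98 (0.67%) were lower in fluctuating larvae. The median log2 fold change was 0.87 among the genes called higher, and the median size of the change was 0.63 among those called lower. The median over all genes tested was 0.01. At an unadjusted p under 0.05 there were 1834 of the 14634 genes, and a second method, DESeq2, called 524. The values of the 4 fluctuating and the 4 constant libraries did not overlap for any of the 162 genes, while they did not overlap for 1703 of all genes (11.6%), 555 higher (3.79%) and 1148 lower (7.84%). Among the 162 were 149 protein-coding genes and 7 non-coding RNA genes. The count fell with any low-point library left out: it was 44, 57, 51 and 77 without constant replicates 1, 2, 3 and 4, and 82, 85, 59 and 101 without fluctuating replicates 1, 2, 3 and 4. The excess of lower genes did not hold throughout. Without fluctuating replicate 3, the library that stood apart, 37 genes were higher and 22 lower, and without fluctuating replicate 4 the numbers were 51 and 50. The number of genes that kept the call with every one of the 16 larval libraries left out in turn was 39, of which 20 were higher and 19 lower, and no called gene changed sign.

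**Figure D1:**
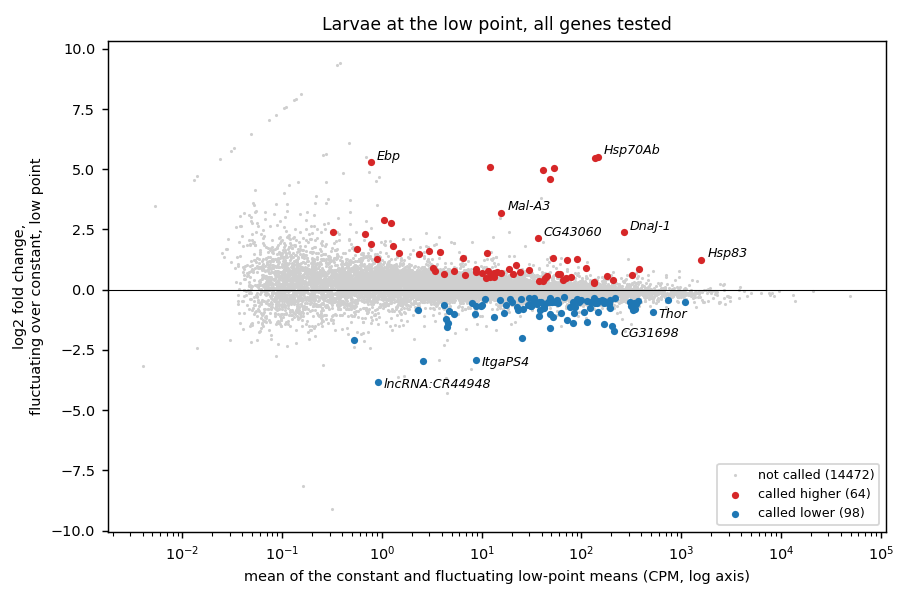
Log2 fold change (fluctuating over constant larvae, low point) against the mean level in CPM on a log axis, 1 point per gene tested. The 64 genes called higher are red and the 98 called lower are blue. The Hsp70 genes stand at the top of the called genes, and the straight rows of grey points at low levels are genes with 0 counts in most libraries.

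The inducible chaperones rose. All 7 genes of the Hsp70 and Hsp68 list were called higher, with a median log2 fold change of 5.07. Hsp70Ab (FBgn0013276, chromosome 3R, 11958535 to 11960909, plus strand, BDGP6.54 annotation) was at 2.93, 4.05, 2.10 and 15.8 CPM in constant replicates 1 to 4 and at 485, 265, 112 and 284 CPM in fluctuating replicates 1 to 4. Every fluctuating library was well above every constant one, with fluctuating replicate 3 lowest in its group and constant replicate 4 highest in its own. The log2 fold change was 5.52 (SE 0.755, adjusted p = 0.00224). Its divergently placed neighbour Hsp70Aa had 2.67, 4.05, 1.88 and 15.2 CPM in constant and 448, 246, 101 and 270 CPM in fluctuating larvae (log2 fold change 5.48). In the copies at the other locus of the chromosome arm the fluctuating libraries had the same order. Hsp70Bb was at 1.64, 2.20, 1.80 and 6.64 CPM in constant and at 159, 97.3, 34.1 and 126 CPM in fluctuating larvae (5.07), while the log2 fold changes were 5.11 for Hsp70Ba, 4.96 for Hsp70Bbb and 4.6 for Hsp70Bc. Because the copies are nearly identical in sequence, how their reads were shared out is uncertain, and Hsp70Ab overlaps CG3281 on the other strand.

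Hsp68, the remaining inducible Hsp70-family gene, showed a smaller change. It stood at 55.8, 102, 80.6 and 73.8 CPM in constant and at 165, 142, 126 and 154 CPM in fluctuating larvae. The groups did not overlap, and the log2 fold change was 0.91 (SE 0.193, adjusted p = 0.0344). That call was lost without each of constant replicates 1, 3 and 4 and each fluctuating low-point library. With any of these libraries left out, the list had 6 of 7 members called. Hsp68 overlaps CG6000 and lncRNA:CR44097 on the other strand.

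Among Hsp90, J-domain and other cytosolic chaperones, 7 of 35 genes (20%) were called higher and 0 lower, with a median log2 fold change of 0.17. The J-domain gene DnaJ-1 (3L, 5750029 to 5752189, minus strand) was at 77.5, 75.7, 81.9 and 106 CPM in constant and at 523, 458, 380 and 420 CPM in fluctuating larvae. Its groups lay far apart, and it had the smallest p of all genes (log2 fold change 2.39, SE 0.171, adjusted p = 9.48e-06). The fly Hsp90 gene, Hsp83 (3L, 3192969 to 3197059, plus strand), was at 893, 1000, 902 and 993 CPM in constant and at 2425, 2292, 1980 and 2248 CPM in fluctuating larvae. The groups were widely separated, and the log2 fold change was 1.24 (SE 0.0957, adjusted p = 1.32e-05). Hsp83 overlaps CG14966 on the other strand.

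Co-chaperones of both machines rose by less, with tight replicates. CG1416, the counterpart of the human Hsp90 activator Aha1, was at 49.1, 48.7, 46.7 and 47.4 CPM in constant and at 77.3, 76.5, 68.9 and 76.5 CPM in fluctuating larvae (log2 fold change 0.64, SE 0.0616, adjusted p = 0.000165). Stip1, the adaptor that links Hsp70 and Hsp90, was at 145, 147, 140 and 146 CPM in constant and at 194, 229, 206 and 228 CPM in fluctuating larvae (0.57, SE 0.0877, adjusted p = 0.0051). In both genes the spread within a group was small against the distance between groups. The J-domain gene Droj2 rose by 0.59 (SE 0.0674, adjusted p = 0.000478), the nucleotide exchange factor Hsp110 by 0.40 (adjusted p = 0.0182) and the mitochondrial Hsp70 gene Hsc70-5 by 0.34 (adjusted p = 0.0315). The Hsp110 call was lost without constant replicate 1 or 3, and that of Hsc70-5 without any constant replicate or fluctuating replicate 1 or 3.

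The other 28 genes of this list did not pass edgeR's test. Of the 35, 15 were higher and 0 lower at an unadjusted p under 0.05, and DESeq2 called 12, all higher. Of the 35 members, 31 had a positive log2 fold change and 19 had groups that did not overlap, all 19 higher. Over all genes 3.79% were higher without overlap. The constitutive Hsc70-4 was at 2615, 2615, 2404 and 2362 CPM in constant and at 3051, 2966, 2924 and 2848 CPM in fluctuating larvae (log2 fold change 0.24, adjusted p = 0.258). Hsf itself had a log2 fold change of 0.13 (adjusted p = 0.486), the mitochondrial chaperonin Hsp60A 0.27 (adjusted p = 0.0699) and the Hsp70 co-chaperone stv 0.60 (adjusted p = 0.106). The 8 subunits of the cytosolic chaperonin, CCT1 to CCT8, ran from 0.08 for CCT6 to 0.27 for CCT5.

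**Figure D2:**
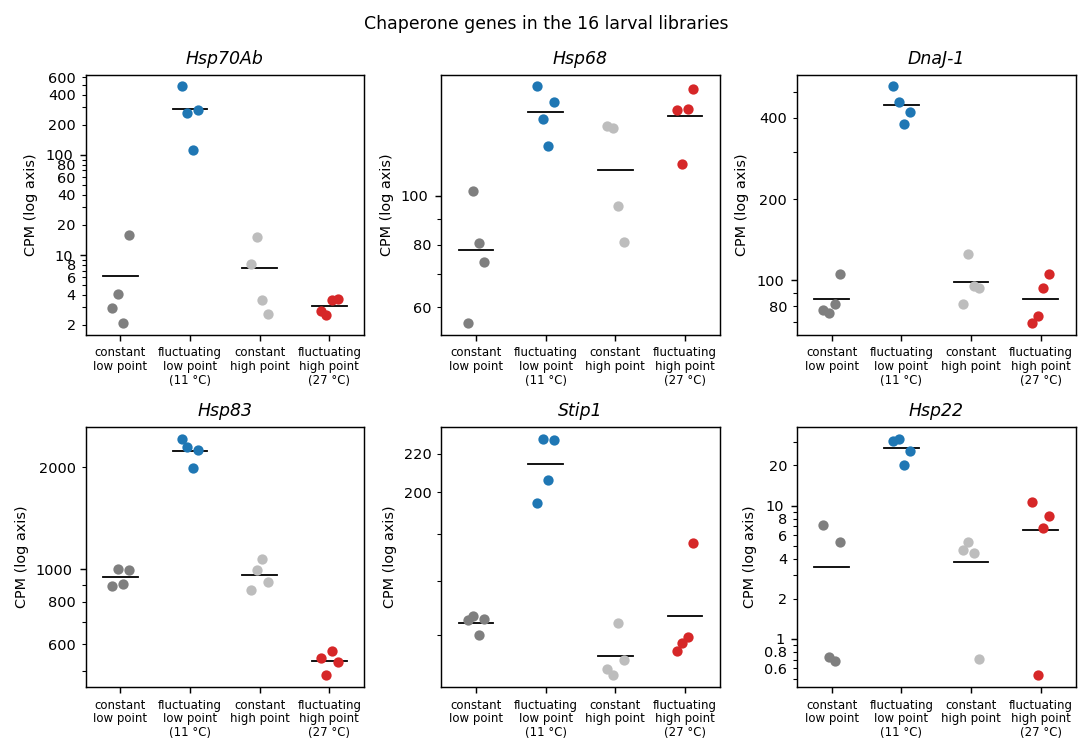
Levels of 6 chaperone genes in CPM (log axes) in the 16 larval libraries, by regime and sampling point, with 1 point per library and a bar at the group mean. Fluctuating larvae at the low point stand above constant larvae at that point in every panel, and for Hsp70Ab, DnaJ-1 and Hsp83 the fluctuating larvae at the high point do not.

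Small heat shock genes, whose products hold unfolding proteins in solution, had 0 of 11 called by edgeR (median log2 fold change 0.30), with 3 higher and 1 lower at an unadjusted p under 0.05 and 2 called higher by DESeq2. Hsp22 was at 7.17, 0.737, 0.678 and 5.31 CPM in constant and at 30.3, 31.8, 20.04 and 25.8 CPM in fluctuating larvae. Its groups did not overlap, but the constant libraries spread widely, and the log2 fold change of 2.96 had an SE of 0.869 (adjusted p = 0.132). Hsp26 was at 338, 300, 425 and 457 CPM in constant and at 614, 794, 505 and 723 CPM in fluctuating larvae, with no overlap (0.79, adjusted p = 0.0559). The groups overlapped for Hsp23 (0.21, adjusted p = 0.748), Hsp27 (0.08, adjusted p = 0.887) and l(2)efl (-0.30, adjusted p = 0.342). CG14207 had a log2 fold change of -0.22, Hsp67Ba of 0.30, Hsp67Bc of 0.02, CG4461 of 1.78, CG7409 of 0.45 and CG13133 of 0.84.

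In the endoplasmic reticulum 0 of 19 chaperone and unfolded protein response genes were called by edgeR, with a median of 0.06, while 5 were higher at an unadjusted p under 0.05 and DESeq2 called 4, all higher. Hsc70-3, the fly BiP, was at 1227, 1372, 1250 and 1228 CPM in constant and at 1766, 1710, 1459 and 1590 CPM in fluctuating larvae. Those groups did not overlap (0.36, adjusted p = 0.146). Gp93, Calr and ERp60 had log2 fold changes of 0.26, 0.06 and 0.06, and their groups overlapped.

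A part of the hemocyte markers was lower. Of 23 hemocyte markers, 5 were called lower and 0 higher (21.7% of the list), all 23 had a negative log2 fold change, and the median was -0.24. He, a surface protein of blood cells, was at 51.9, 40.3, 53.6 and 52.6 CPM in constant and at 29.5, 28.9, 23.4 and 30.01 CPM in fluctuating larvae. No fluctuating library reached the lowest constant one (log2 fold change -0.83, SE 0.119, adjusted p = 0.00311). He overlaps NimB5, another gene of the hemocyte list, on the other strand. NimC1, a receptor for bacteria that lies next to He on chromosome 2L with a gap of 211 bases, was at 51.5, 48.9, 51.9 and 49.6 CPM in constant and at 33.4, 35.8, 30.3 and 33.2 CPM in fluctuating larvae (-0.61, SE 0.104, adjusted p = 0.0123). The phagocytosis receptor eater was at 48.4, 37.5, 37.1 and 30.8 CPM and at 26.3, 25.1, 21.3 and 24.03 CPM (-0.67, SE 0.129, adjusted p = 0.0237).

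PPO3 and ItgaPS4, both known from lamellocytes, had the largest changes among the 5 called markers. PPO3, the lamellocyte phenoloxidase, was at 5.59, 4.03, 8.20 and 9.13 CPM in constant and at 1.97, 2.03, 2.75 and 2.43 CPM in fluctuating larvae (-1.55, SE 0.304, adjusted p = 0.0247). ItgaPS4, an integrin subunit, was at 13.97, 7.01, 22.3 and 18.3 CPM and at 1.81, 2.79, 1.46 and 2.07 CPM (-2.92, SE 0.562, adjusted p = 0.0237), and it overlaps Trpm on the other strand. In both genes constant replicate 2 was lowest among the constant libraries and still above every fluctuating one. The lamellocyte marker atilla did not pass (-0.53, adjusted p = 0.421), and neither did the crystal cell gene lz (-0.22), PPO1 (-0.36) and PPO2 (-0.33), the phagocyte markers NimC2 (-0.24) and Hml (-0.23), or Col4a1 (-0.14), a collagen gene shared with fat body. The engulfment receptor drpr, which is on no list and was named after its values were seen, fell by 0.36 on the log2 scale (adjusted p = 0.0307). The number of hemocyte markers called was 1 without constant replicate 1, 2 without constant replicate 3 and without fluctuating replicates 3 or 4, 3 without constant replicate 4 and without fluctuating replicates 1 or 2, and 4 without constant replicate 2. The summed level of the 23 markers was between 3349 and 4015 CPM in constant and between 3113 and 3369 CPM in fluctuating larvae, so the sums overlapped.

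Levels at the high point are given beside these, without a test of one sampling point against the other within a regime. He was between 37.1 and 41.2 CPM in constant larvae at the high point and between 32.4 and 45.998 CPM in fluctuating ones, where its log2 fold change was -0.08 (adjusted p = 0.814). For eater the high-point values were 21.4 to 29.9 CPM in constant and 27.9 to 33.0 CPM in fluctuating larvae. By contrast PPO3 was at 4.96 to 7.92 CPM in constant and 1.30 to 3.06 CPM in fluctuating larvae at the high point, and ItgaPS4 at 11.2 to 19.2 and 0.659 to 6.39 CPM. PPO3 and ItgaPS4 were called lower at both points (-1.61 and -2.21 at the high point). NimC1 had -0.28 at the high point (adjusted p = 0.131), while NimC2 was called higher there (0.79, adjusted p = 0.0429). The median of the hemocyte list was -0.28 at the high point, beside -0.24 at the low point.

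**Figure D3:**
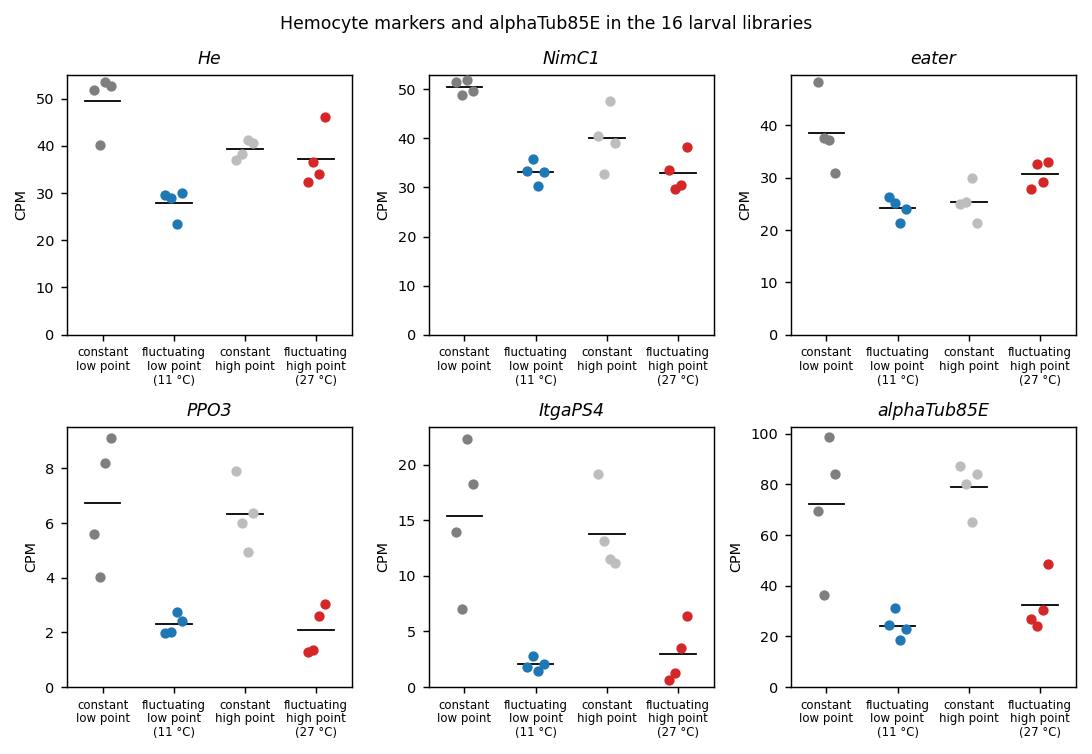
Levels of 5 hemocyte markers and of alphaTub85E in CPM in the 16 larval libraries, by regime and sampling point, with 1 point per library and a bar at the group mean. PPO3, ItgaPS4 and alphaTub85E are lower in fluctuating larvae at both points, while the group means of He and eater are highest in constant larvae at the low point.

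Insulin and TOR signalling, which couples growth to nutrition, had 3 of 25 genes called lower (12%) and 0 higher, with a median of -0.21. Thor, the translation inhibitor 4E-BP, was at 639, 645, 789 and 644 CPM in constant and at 316, 398, 315 and 417 CPM in fluctuating larvae (-0.91, SE 0.205, adjusted p = 0.0484). The receptor gene InR was at 66.3, 75.4, 68.5 and 63.8 CPM in constant and at 38.05, 52.8, 40.9 and 56.5 CPM in fluctuating larvae (-0.54, SE 0.115, adjusted p = 0.0359). The kinase gene Pdk1 fell by 0.54 on the log2 scale (SE 0.11, adjusted p = 0.0311), and foxo, whose product activates Thor and InR, had a log2 fold change of -0.38 without overlap (adjusted p = 0.0559). In all, 9 of the 25 had non-overlapping groups with fluctuating larvae lower, beside 7.84% of all genes. The insulin-like peptide genes Ilp2, Ilp5 and Ilp6 had log2 fold changes of -0.34, -0.43 and -0.49, none past the threshold. These 3 calls were weak: the list had 0 genes called without constant replicates 1, 2 or 4 or fluctuating replicates 1, 2 or 3, and 5 without the high-point fluctuating replicate 4. Lst, a peptide hormone known to hold back insulin release in flies and named after its values were seen, was at 429, 381, 388 and 374 CPM in constant and at 267, 244, 185 and 278 CPM in fluctuating larvae (-0.69, adjusted p = 0.0323).

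Of 17 ecdysone response genes, EcR, the hormone's receptor, was the single call by edgeR. It was at 178, 188, 164 and 153 CPM in constant and at 127, 123, 108 and 136 CPM in fluctuating larvae (-0.47, SE 0.105, adjusted p = 0.0458, lost without any 1 of 12 libraries). Its groups did not overlap. The early genes br and Eip75B had log2 fold changes of -0.42 and -0.49 with adjusted p of 0.30 and 0.238. In all, 5 of the 17 had non-overlapping groups with fluctuating larvae lower, beside 7.84% of all genes.

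Of 24 metallothionein and metal transport genes 2 were called by edgeR, both higher. The list as a whole had no common direction: 10 members had a positive log2 fold change, the median was -0.01, 4 were higher and 4 lower at an unadjusted p under 0.05, and DESeq2 called 3 higher and 2 lower. The 2 called genes encode metallothioneins, small proteins that bind copper, zinc and cadmium. MtnB was at 12.1, 15.98, 17.2 and 13.2 CPM in constant and at 31.5, 19.7, 34.8 and 32.0 CPM in fluctuating larvae (1.01, SE 0.177, adjusted p = 0.014, lost without constant replicate 1). MtnE was at 25.2, 27.4, 38.1 and 30.02 CPM and at 118, 66.8, 58.7 and 55.8 CPM (1.31, SE 0.267, adjusted p = 0.0307, lost without any 1 of 7 libraries). Fluctuating replicate 1 was by far the highest library for MtnE. MtnA had a log2 fold change of 0.60 (adjusted p = 0.0853).

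Genes of metabolism gave single calls. The maltase gene Mal-A3 was at 3.61, 2.79, 3.17 and 2.89 CPM in constant and at 35.5, 34.2, 22.9 and 21.3 CPM in fluctuating larvae (3.19, SE 0.66, adjusted p = 0.032, lost without any 1 of 7 libraries). Its levels at the high point were 14.05 to 50.5 CPM in constant and 2.96 to 51.3 CPM in fluctuating larvae, and the lowest of these lay within the range of constant larvae at the low point. Its neighbours in the cluster, Mal-A5 and Mal-A6, had log2 fold changes of -0.29 and 0.47 and were not called. Among 79 cytochrome P450 genes Cyp304a1 was the single call by edgeR. DESeq2 called 3 of them lower, beside 524 of all 14634 genes in either direction. At an unadjusted p under 0.05, 11 were lower and 0 higher, beside 1834 of all genes in either direction. Cyp304a1 was at 80.4, 71.2, 73.0 and 58.9 CPM in constant and at 36.4, 29.0, 26.0 and 37.7 CPM in fluctuating larvae (-1.13, SE 0.149, adjusted p = 0.00166). whd, the carnitine palmitoyltransferase that admits fatty acids to mitochondria, fell by 0.49 on the log2 scale (adjusted p = 0.0323, lost without any 1 of the 8 compared libraries). P5CS, which makes the proline precursor pyrroline-5-carboxylate and was named after its values were seen, fell by 0.56 (adjusted p = 0.0237).

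Several genes outside the lists had clear shifts. The neighbouring genes CG31698 and CG15404, 132 bases apart on chromosome 2L (3173205 to 3173840 and 3173972 to 3174504), fell together. CG31698 was at 325, 341, 282 and 370 CPM in constant and at 112, 51.4, 96.2 and 138 CPM in fluctuating larvae (-1.73, SE 0.268, adjusted p = 0.00516). CG15404 was at 293, 319, 263 and 331 CPM and at 124, 58.2, 107 and 141 CPM (-1.49, SE 0.253, adjusted p = 0.0118). Fluctuating replicate 2 was lowest for both. Nha1, a sodium-proton exchanger, was at 126, 161, 126 and 147 CPM in constant and at 65.4, 72.6, 65.4 and 89.9 CPM in fluctuating larvae (-0.93, SE 0.128, adjusted p = 0.00224). alphaTub85E, an alpha-tubulin, was at 69.6, 36.3, 98.7 and 84.3 CPM and at 24.3, 31.1, 18.5 and 22.99 CPM (-1.58, SE 0.276, adjusted p = 0.014), with constant replicate 2 again the lowest of its group. CG43060 was among the genes that rose most, from 15.2, 7.91, 13.9 and 17.1 CPM to 42.7, 74.5, 62.4 and 60.0 CPM (2.15, SE 0.305, adjusted p = 0.00283).

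Further genes called lower with a large change were pirk, an inhibitor of the Imd immune pathway (-1.38), CG1208 (-2.02), CG45079 (-2.98), CG7294 (-1.34), CG34330 (-1.24), laza, a lipid phosphate phosphatase (-1.14), and the non-coding lncRNA:CR44948 (-3.82), lncRNA:CR31044 (-1.36) and lncRNA:CR43650 (-1.22). CG8157 fell by 0.99 and snoRNA:Psi28S-3305c, at under 1 CPM in every library, by 2.10. FBgn0028519, an identifier with no match in the annotation, was at 253, 216, 278 and 238 CPM in constant and at 86.5, 90.7, 70.2 and 114 CPM in fluctuating larvae (-1.44, adjusted p = 0.00534). Among genes called higher, CG45071 rose by 0.74 (adjusted p = 0.000279), CG34427 by 1.81, CG18628 by 2.79 and lncRNA:CR43270 by 2.88. The last was at 4.32 CPM in fluctuating replicate 1 while the remaining fluctuating libraries held 0.653 to 1.83 CPM, and its call was lost without any 1 of 13 libraries.

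Transcription factor genes appeared in both directions. The winged-helix gene jumu was at 57.1, 54.8, 55.4 and 53.7 CPM in constant and at 38.6, 38.1, 39.2 and 37.4 CPM in fluctuating larvae (-0.53, SE 0.0598, adjusted p = 0.000478). The paired-box gene Poxm fell by 1.02 (adjusted p = 0.00219). Of factors named after their values were seen, fkh, a salivary gland regulator, fell by 0.51 (adjusted p = 0.00512), Kr by 0.83, the Hox gene abd-A by 0.70 and the homeobox gene otp by 0.65. Genes of the Enhancer of split complex, known as targets of Notch signalling, were also picked after their values were seen. Of 11 tested, 3 were called higher and 0 lower, so 8 did not pass, and all 11 had a positive log2 fold change (median 0.41). The groups of 7 did not overlap, with fluctuating larvae higher, beside 3.79% of all genes. E(spl)m7-HLH was at 5.37, 5.73, 6.47 and 7.06 CPM in constant and at 11.9, 12.1, 10.8 and 10.3 CPM in fluctuating larvae (0.87, adjusted p = 0.00471). E(spl)m3-HLH rose by 0.70 and E(spl)mgamma-HLH by 0.61, the latter with an adjusted p of 0.0493.

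Further genes were named after their values were seen. The co-activator mbf1 was at 65.8, 66.0, 66.0 and 62.3 CPM in constant and at 96.4, 94.7, 91.4 and 90.3 CPM in fluctuating larvae (0.52, adjusted p = 0.000947). GlcT, which makes glucosylceramide, was at 19.9, 22.2, 20.3 and 24.4 CPM and at 39.9, 42.1, 35.5 and 33.9 CPM (0.80, adjusted p = 0.000966). In both genes the groups lay apart by more than the spread within either. Nop17l rose by 0.50 and aay, a phosphoserine phosphatase, by 0.64, the latter with fluctuating replicate 1 far above the other 3. Rm62, a DEAD-box helicase, fell by 0.42, NAT1, an eIF4G-related factor, by 0.52, and glo, an RNA-binding protein, by 0.44. The calls of Rm62 and NAT1 were lost without any 1 of 8 libraries and that of glo without any 1 of 7. Swim fell by 0.58 (adjusted p = 0.00362).

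Some calls concerned adult genes close to the limit of detection. Acp36DE, a seminal fluid protein of the male accessory gland, was at 0.221, 0.230, 0.230 and 0.228 CPM in constant and at 0.969, 1.16, 1.11 and 1.30 CPM in fluctuating larvae (2.32, SE 0.473, adjusted p = 0.0307, lost without any 1 of the 8 compared libraries). Ebp, of the ejaculatory bulb, was at 0 to 0.0651 CPM in constant and at 2.31, 1.67, 0.481 and 1.596 CPM in fluctuating larvae (5.29, adjusted p = 0.0361). The eggshell gene Cp18 was at 0.0417 to 0.146 CPM and at 0.475 to 0.617 CPM (2.38, adjusted p = 0.024), and Act79B, an actin of adult muscle, at 0.274 to 0.421 CPM and at 0.928 to 1.65 CPM (1.91, adjusted p = 0.0191). The groups did not overlap for any of the 4 genes. In libraries of adult males at the same point and cycle number, before TMM scaling, Acp36DE was at 607 to 906 CPM in constant and 1182 to 1410 CPM in fluctuating animals, and Ebp at 1712 to 2469 and 2294 to 2475 CPM. Whether larvae transcribe these genes or adult RNA is present in their libraries was not tested. The 39 genes of the accessory gland list summed to 3.68 to 4.27 CPM in constant and 7.19 to 13.7 CPM in fluctuating larvae, and 2 of the 16 that passed the low-count filter were called. In the testis list 1 of 39 genes was called, mia (0.76, adjusted p = 0.0427). The median of that list was 0.50, and 0.18 without fluctuating replicate 3.

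**Figure D4:**
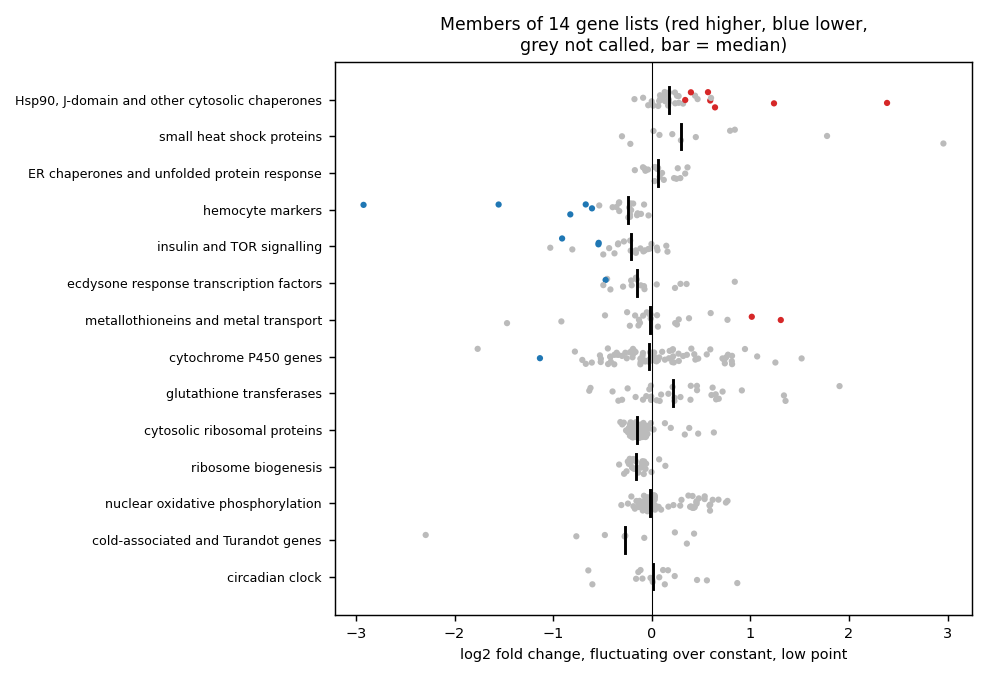
Log2 fold change of each tested member of 14 gene lists at the larval low point, with called genes in red (higher) or blue (lower), the others in grey, and a bar at the list's median. Cytosolic chaperones lie to the right of 0 and hemocyte markers and ribosomal proteins to the left, while the circadian clock list is centred near 0. Vertical scatter only separates the points.

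Of 43 lists with members tested, 30 had 0 genes called by edgeR. Over all 14634 genes tested, 1834 had an unadjusted p under 0.05 and DESeq2 called 524. Of the 845 list entries in the lists without an edgeR call, 89 had an unadjusted p under 0.05, and DESeq2 called 28, in 14 of the 30 lists. These included the cold-associated and Turandot genes (0 of 9, median -0.27), the circadian clock (0 of 17, median 0.01), thermosensory channels and receptors (0 of 18, median 0.09), antimicrobial peptides and Bomanins (0 of 33, median -0.25) and cuticle proteins (0 of 110, median 0.02). Among antimicrobial peptides and Bomanins 2 were higher and 8 lower at an unadjusted p under 0.05, and DESeq2 called 5 lower. The cold-associated gene regucalcin was at 2373, 1962, 2205 and 2050 CPM in constant and at 1665, 1582, 1482 and 1449 CPM in fluctuating larvae, without overlap (-0.48, adjusted p = 0.0826). Fst, TotA and lncRNA:Hsromega had log2 fold changes of 0.23, -0.27 and -0.08, each with overlapping groups. Cytosolic ribosomal proteins had 0 of 89 called, with 82 negative log2 fold changes, a median of -0.15 and 26 members whose groups did not overlap, all 26 lower. Over all genes 7.84% were lower without overlap. Before TMM scaling the 89 genes summed to 84560 to 89530 CPM in constant and 80740 to 89120 CPM in fluctuating larvae, so the sums overlapped. Ribosome biogenesis had 0 of 27 called, a median of -0.16 and 9 members that were lower without overlap. No list had edgeR calls in both directions, while DESeq2 called genes in both directions in 5 lists.

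The low-point changes were compared with those at the high point. The treatment effect at the low point differed from that at the high point for 247 of 14634 genes (1.69%), and 63 of the 162 low-point genes were among them. At the high point itself 639 genes were called (4.37%), and 26 genes were called at both points, 16 in the same direction and 10 in opposite ones. In whole lists, the difference was called for 6 of 7 Hsp70 and Hsp68 genes, 5 of 35 cytosolic chaperones and 4 of 19 endoplasmic reticulum genes. For small heat shock genes it was called for 0 of 11. Hsp70Ab was at 2.58 to 15.2 CPM in constant and 2.52 to 3.62 CPM in fluctuating larvae at the high point (log2 fold change -1.24, adjusted p = 0.285), and the difference between the points was 6.76 on the log2 scale. Hsp83 was at 869 to 1070 CPM in constant and 486 to 573 CPM in fluctuating larvae at the high point (-0.85, adjusted p = 0.000424), a difference of 2.09 between the points (adjusted p = 2.21e-06). In the endoplasmic reticulum list, Hsc70-3 had -0.43 (adjusted p = 0.0416) and Gp93 -0.51 (adjusted p = 0.0337) at the high point. Their differences between the points were 0.79 (adjusted p = 0.0234) and 0.78 (adjusted p = 0.0394). Of the 14 chaperone genes called at the low point, 10 had a difference between the points that was called. These 14 and the 162 were picked by their low-point effect, which is part of the tested difference. That choice favours such calls, so their shares are not comparable with the 1.69% of all genes.

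Beside Hsp83, genes called in opposite directions included CG34427 and its neighbour CG13311, which were higher at the low point (1.81 and 1.51) and lower at the high point (-1.13 and -1.49). Sps1, a selenophosphate synthetase-related gene, was lower at the low point (-0.43, adjusted p = 0.00811) and higher at the high point (0.52, adjusted p = 0.00183). Of the 16 genes called in the same direction, 11 were lower, among them PPO3, ItgaPS4, alphaTub85E, CG45079, lncRNA:CR31044 and drpr, and 5 were higher, among them Act79B and CG45071.

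**Figure D5:**
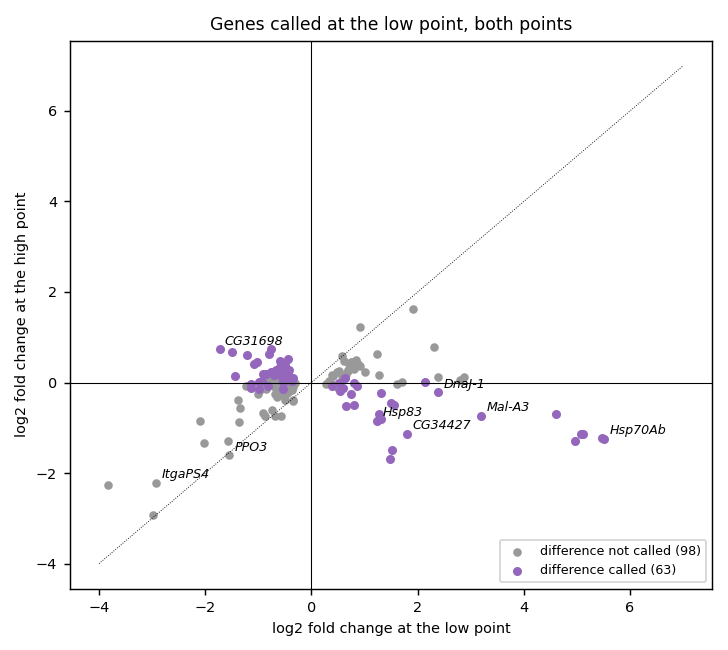
Log2 fold change (fluctuating over constant) at the high point against that at the low point for 161 of the 162 genes called at the low point, with purple points where the difference between the points was called. The dotted line marks equal effects, and Ebp, listed at 0 in all constant high-point libraries, is left out. The Hsp70 genes lie far to the right and below 0, and PPO3 and ItgaPS4 lie near the dotted line.

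The larval low point was also set against that of adults after 6 cycles, whose treatment was longer (13 days against 7). In the comparison of the larval effect with the mean of the female and male effects, 1630 of 15902 genes (10.3%) differed, and 105 of the 162 larval genes were among them. The larval effect that picked the 162 genes is part of this difference too, which favours such calls among them. A library of the adult groups goes in part against its label: the constant male library of replicate 2 held the yolk protein gene Yp1, a female gene, at 4471 CPM, against 4.43 to 18.3 CPM in its 3 fellow libraries. The same library held the male genes Acp36DE at 607 CPM and Ebp at 1712 CPM, the lowest values among constant males and far above the 0.331 to 0.537 and 0.928 to 1.64 CPM of constant females. The male values and adult means below include it, and values without it are given for some of the named genes. Of the 14 chaperone genes, 13 had a larval effect that differed from the adult one, with that library and without it, and Hsp68 did not (difference 0.29, adjusted p = 0.386). Hsp68 was called higher in females (1.31, adjusted p = 4.15e-05) and not in males (0.04, adjusted p = 0.919). Hsp70Ab had log2 fold changes of 0.80 in females (adjusted p = 0.291) and 1.76 in males (adjusted p = 0.0158; 2.16 without the library), and its larval effect was larger by 4.27 (4.07 without it). Before TMM scaling Hsp70Ab was at 40.3 to 49.05 CPM in constant and 63.7 to 85.6 CPM in fluctuating females, without overlap. Constant larvae were at 2.01 to 16.4 CPM and constant males at 3.27 to 8.12 CPM, so the fold changes start from unlike levels. The 8.12 CPM is that of constant male replicate 2, and the other constant males were at 3.27 to 4.02 CPM. DnaJ-1 had 0.55 in females (adjusted p = 0.000836) and -0.07 in males (adjusted p = 0.708), and a larval excess of 2.20 on the log2 scale both with and without the library. Hsp83 had -0.30 in females (adjusted p = 0.31) and -0.70 in males (adjusted p = 0.0113; -0.30 without the library), a difference of 1.80 (1.6 without it). Before scaling Hsp83 was at 3439 to 3775 CPM in constant females, 892 to 2016 in constant males and 2333 to 2488 in fluctuating larvae. The 2016 CPM is that of constant male replicate 2, and the other constant males were at 892 to 955 CPM. For Mal-A3 the effect in females was -0.10 (adjusted p = 0.783), and the larval effect was larger than the adult mean by 3.30 (3.33 without the library). Among hemocyte markers the larval effect differed from the adult one for 3 genes, and the calls held without the library. The difference was -3.23 for ItgaPS4 (adjusted p = 4.55e-06; -3.21 without the library), whose log2 fold changes in females and males were 0.44 and 0.29, neither called. It was -0.79 for atilla (adjusted p = 0.0317), whose larval change was itself not called, and -0.55 for NimC1 (adjusted p = 0.0234). The difference did not pass for He (-0.83, adjusted p = 0.161), eater (-0.41, adjusted p = 0.241) or PPO3 (-0.63, adjusted p = 0.145). Nor did it pass for them without the library (adjusted p of 0.154, 0.233 and 0.143). PPO3 was also called lower in males, with the library (-1.19, adjusted p = 0.000893) and without it (-1.21, adjusted p = 0.00137).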

How the data were processed

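Messenger RNA of whole animals was enriched with oligo(dT) beads, per the labels' protocols. Reads were handled with FastQC, Trimmomatic, HISAT2 and StringTie on BDGP6, per the submitters' processing notes, and the sources used here name no tool versions. The authors deposited an estimated count for each gene, without normalisation; values were rounded before testing, though already whole. Multiples of 4 are frequent among low values (35.1% of 18459 values from 1 to 24, where even spacing gives 25%), so depth may be below what totals state. Of 17697 identifiers, 17559 matched the BDGP6.54 annotation used for names and coordinates (1-based), and 138 did not. The 37 mitochondrially encoded genes are listed at 0. Strand was not stated, so overlapping antisense genes cannot be separated. Overlaps are named for some genes only, and other named genes also overlap a neighbour on either strand. Intervals were not drawn, and reads carry no molecular identifiers.

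Tests used edgeR 4.0.16 in R 4.3.3: the quasi-likelihood F-test, TMM factors, a low-count filter (filterByExpr, minimum 10) and Benjamini-Hochberg adjustment, with 0.05 as threshold. The 16 larval libraries were fitted together (14634 genes), with contrasts for the low point, the high point and their difference. The 24 low-point libraries at 6 cycles (15902 genes) gave the contrast of larvae with adults. No covariates were used. Levels are CPM scaled by TMM factors, and list sums and adult levels are CPM before scaling. SE is an approximate standard error, the size of a log2 fold change divided by the square root of its F statistic. The procedure was tested on simulated counts. DESeq2 1.42.0, other scalings, filters, a robust fit, a replicate block and leaving out each library were alternatives.

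Named genes were the 15 higher and 15 lower with the largest change among called genes with non-overlapping groups and a mean of at least 1 CPM in the higher group, the 8 higher and 8 lower with the smallest p, called members of lists, uncalled heat shock genes and up to 4 abundant uncalled members of other lists. Members and lists were chosen with earlier results of these data known, and some further genes are marked as named after their values were seen. fln was removed from the yolk list, Fer1HCH and CG10621 from the hemocyte list and Lip3 from the sugar digestion list for doubtful membership. A planned search of promoters for heat shock and metal response motifs was not run, and no sequences were used here.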

Additional observations from a re-analysis of the deposited data

Results flagged for a closer look

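In 11 of 218 groups of 4 libraries examined, the highest or lowest library stood far from the others of its group. For independent, normally spread values chance gives this in about 1 in 20 groups. Of the 11, 5 were Hsp70 genes in constant replicate 4, which read high at 15.8 CPM for Hsp70Ab (others 2.10 to 4.05), 15.2 for Hsp70Aa, 6.64 for Hsp70Bb, 5.49 for Hsp70Bbb and 9.19 for Hsp70Bc. That library stood below every fluctuating library for these genes. These 5 flags come from near-identical copies in the same library and are not independent, so the count of 11 is not directly comparable with that rate. The others were He at 40.3 CPM and Hsc70-3 at 1372 CPM in constant replicate 2, Thor at 789 CPM in constant replicate 3, mbf1 at 62.3 CPM in constant replicate 4, CG1416 at 68.9 CPM in fluctuating replicate 3 and aay at 92.5 CPM in fluctuating replicate 1.

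The treatment effect differed between the low and the high point, by edgeR's test of that difference, for 35 of the 76 called genes named. These genes were picked by their low-point effect, which favours such calls. Each value that follows is the low-point log2 fold change minus the high-point one. Among chaperones it was 6.76 for Hsp70Ab, 6.71 for Hsp70Aa, 6.26 for Hsp70Ba, 6.20 for Hsp70Bb, 6.25 for Hsp70Bbb, 5.29 for Hsp70Bc, 2.60 for DnaJ-1, 2.09 for Hsp83, 0.71 for Droj2 and 0.53 for CG1416. Other positive differences were 3.93 for Mal-A3, 3 for CG13311, 2.94 for CG34427, 2.14 for CG43060, 2.12 for MtnE, 0.81 for GlcT and 0.52 for mbf1.

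Negative differences between the points were -2.47 for CG31698, -2.17 for CG15404, -1.82 for lncRNA:CR43650, -1.60 for FBgn0028519, -1.46 for Poxm, -1.11 for laza and -1.01 for Cyp304a1. Smaller ones were -0.96 for Nha1, -0.96 for Sps1, -0.84 for CG8157, -0.82 for Swim, -0.87 for abd-A, -0.73 for NAT1, -0.69 for Rm62, -0.64 for glo and -0.38 for jumu. Of the hemocyte markers, eater had -0.94 and He -0.75.

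The low-point effect in larvae also differed from the mean effect in adults for 13 of the 14 chaperone genes called, where the same choice favours calls. The larval effect was larger by 4.27 for Hsp70Ab, 4.26 for Hsp70Aa, 4.58 for Hsp70Ba, 4.53 for Hsp70Bb, 4.6 for Hsp70Bbb, 4.20 for Hsp70Bc, 2.20 for DnaJ-1, 1.80 for Hsp83, 1.03 for Stip1, 0.98 for Droj2, 0.93 for CG1416, 0.77 for Hsp110 and 0.76 for Hsc70-5 on the log2 scale. The same difference was 3.30 for Mal-A3, -3.23 for ItgaPS4, -0.79 for atilla and -0.55 for NimC1. All 13 chaperone calls held without constant male replicate 2, the library with Yp1 at 4471 CPM and with Acp36DE and Ebp at male levels.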

How the results depend on the processing

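The count of 162 genes at the low point was within 1.5 times of its value under RLE and upper-quartile factors, no filter, a minimum count of 40, counts divided by 4, a robust fit and the replicate block. It was 253 in a fit of the 8 compared libraries and 524 with DESeq2, which called all 162, and it ran from 44 (without constant low replicate 1) to 270 (without fluctuating high replicate 4) with 1 library left out. A fit without 1 low-point library also compares fewer samples, and the part of this in the lower counts was not tested. The count of genes whose effect differed between the points (247) was 466 with upper-quartile factors and 1048 with DESeq2, and from 75 (without constant low replicate 3 or fluctuating high replicate 2) to 640 (without constant high replicate 3) with 1 library left out. It was 617 with fluctuating high replicate 1 left out. Leaving out constant high replicates 1, 2 and 4 gave 88, 91 and 126. For constant low replicates 1, 2 and 4 the counts were 96, 90 and 113, and leaving out fluctuating low replicates 1, 2 and 3 gave 113, 141 and 140. The larva to adult count (1630) was 2526 with DESeq2 and ran from 1203 to 2372, the highest without constant male replicate 2. The cause of these shifts was not tested. For the 76 called genes named, 1900 values under alternatives gave 0 changes of sign, and 331 no longer passed. Same-numbered libraries did not deviate together (correlations 0.163, -0.11, -0.228 and 0.00454). These values show no pairing by number, but they cannot exclude one. With the replicate block the counts were 121, 305 and 1470, and 105 of the 162 genes kept the call. The block ended the 3 calls of the insulin list and those of Hsp68, MtnE, ItgaPS4 and Acp36DE among others. The promoter motif search was not run.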
